A study of Mus musculus with 8 samples.

Results

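The expression of 10 genes of innate microbial sensing was followed in intestinal crypts of mice that lack Mex3a: Card9, Nod1, Nod2, Tlr3, Tlr4, Tlr5, Nlrp6, Myd88, Ripk2 and Ticam1. They were picked by gene symbol from the 55114 genes of the deposited table, with the counts and FPKM of the 8 mice and the comparison of the genotypes in view. The difference between genotypes is therefore given for these 10 genes as a description, with no p, and the numbers of them past a threshold are read only beside those of all genes. Crypts, the epithelial pockets that house the intestinal stem cells, were shaken loose in EDTA from the gut of 4 Mex3a-/- mice (KO) and 4 littermate controls (Ctrl), all C57BL/6 and 8 weeks old. The KO is constitutive, with exon 1 and part of exon 2 deleted, so every cell of the animal carried the deletion and not the epithelium alone. The labels call the controls both wild type and Ctrl, and give no treatment in either group. The study asked which transcripts of the crypt depend on Mex3a, an RNA-binding protein of intestinal stem cells.

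Innate sensors recognize molecules that microbes share and that the host lacks. Toll-like receptors (TLRs) read them at the cell surface or inside endosomes and pass the signal through the adaptors MYD88 and TRIF (the product of Ticam1), while NOD1 and NOD2 read peptidoglycan fragments in the cytosol and signal through the kinase RIPK2. CARD9 couples C-type lectin receptors for fungal walls to NF-kB through BCL10 and MALT1, and is best known from myeloid cells. NLRP6 is an inflammasome-forming sensor that is abundant in intestinal epithelium.

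Reads counted on genes numbered 20324184 to 24726221 per Ctrl mouse and 23489180 to 30654105 per KO mouse. As a check of the labels, Mex3a was counted 269, 236, 327 and 328 times in the Ctrl mice (replicates 1 to 4, the order used throughout) and 20, 28, 6 and 8 times in the KO mice. Levels between mice are given below as CPM (the count rate per megaread of the TMM-scaled library), and levels between genes as FPKM, which also divides by gene length. Of the 16109 genes that passed the filter on low counts, 0.00621% (Mex3a alone) had an adjusted p under 0.05 in edgeR's quasi-likelihood test. At an unadjusted p under 0.05, 5.33% were above and 3.05% below their Ctrl level in KO. Epithelial markers were abundant (Krt8 led a list of 8 that summed to 9240 to 12478 CPM), whereas markers of neutrophils summed to at most 0.84 CPM, with Ly6g, Cxcr2 and Mpo at 0 in every mouse. In bulk RNA, fewer cells of a type and less RNA per cell cannot be told apart.

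Card9 (ENSMUSG00000026928; GRCm38 chromosome 2, 26352176 to 26360918, minus strand) showed the largest difference of the 10. It was counted 11, 30, 29 and 36 times in Ctrl and 84, 140, 95 and 152 times in KO, that is 0.508, 1.40, 1.42 and 1.504 CPM against 3.53, 5.43, 4.11 and 5.05 CPM. The lowest KO mouse lay above the highest Ctrl mouse, and the remaining Ctrl mice sat close together above Ctrl replicate 1. The mean was 1.21 ± 0.468 CPM in Ctrl and 4.53 ± 0.870 CPM in KO (SD, n = 4 mice each), a ratio of means of 3.75. The fitted log2 fold change was 1.90 (standard error 0.32), which placed Card9 at rank 16 of the 16109 genes from the most positive downwards. Between mice with the same replicate number, KO exceeded Ctrl 6.94-fold, 3.88-fold, 2.90-fold and 3.36-fold. The 0.508 CPM of Ctrl replicate 1 rested on 11 counts. On the log2 scale the Ctrl mice spread by an SD of 0.75, where counting error alone gives 0.31, and the KO mice by 0.28, where counting error gives 0.14.

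The bases upstream of Card9 are shown because it is the member with the largest difference, and those of Nlrp6 because it is the most abundant. Both are RefSeq sequences of GRCm38.p6, the 250 bases before the annotated start, written 5′ to 3′ on the gene's own strand: chr2:26360910-26361159 (minus) for Card9 and chr7:140920652-140920901 (plus) for Nlrp6. The Card9 window ends at the RefSeq start and overlaps the first bases of the longer gene model in the deposited table. Capitals mark the letters CACCC (the core of KLF sites) and GGAAG (the core of ETS sites) on either strand.
Card9: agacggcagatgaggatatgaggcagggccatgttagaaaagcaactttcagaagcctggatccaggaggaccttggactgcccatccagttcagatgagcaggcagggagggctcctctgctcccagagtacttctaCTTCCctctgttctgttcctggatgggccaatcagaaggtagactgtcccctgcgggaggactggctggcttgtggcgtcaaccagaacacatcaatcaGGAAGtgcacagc
Nlrp6: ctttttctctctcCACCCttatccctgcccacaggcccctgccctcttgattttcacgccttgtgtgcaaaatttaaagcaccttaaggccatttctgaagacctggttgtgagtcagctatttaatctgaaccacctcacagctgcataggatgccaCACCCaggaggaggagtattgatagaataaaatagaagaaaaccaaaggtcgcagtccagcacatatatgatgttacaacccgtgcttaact
The Card9 window holds the ETS core at 2 places and no KLF core, and the Nlrp6 window holds the KLF core at 2 places and no ETS core. The matches do not overlap one another. Such short words are common. CACCC stands in 51.3% and GGAAG in 63.6% of the 27025 RefSeq promoter windows of this length, and a site of the NF-kB type, searched by name, in 7.01%. Windows were listed for 8 of the 10 genes, not for Tlr4 and Ripk2. In these windows the NF-kB type was searched on the gene's own strand only, and it was met only in that of Tlr3. These motifs were chosen with the sequences in view, and a match is a description of letters.

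**Figure D1:**
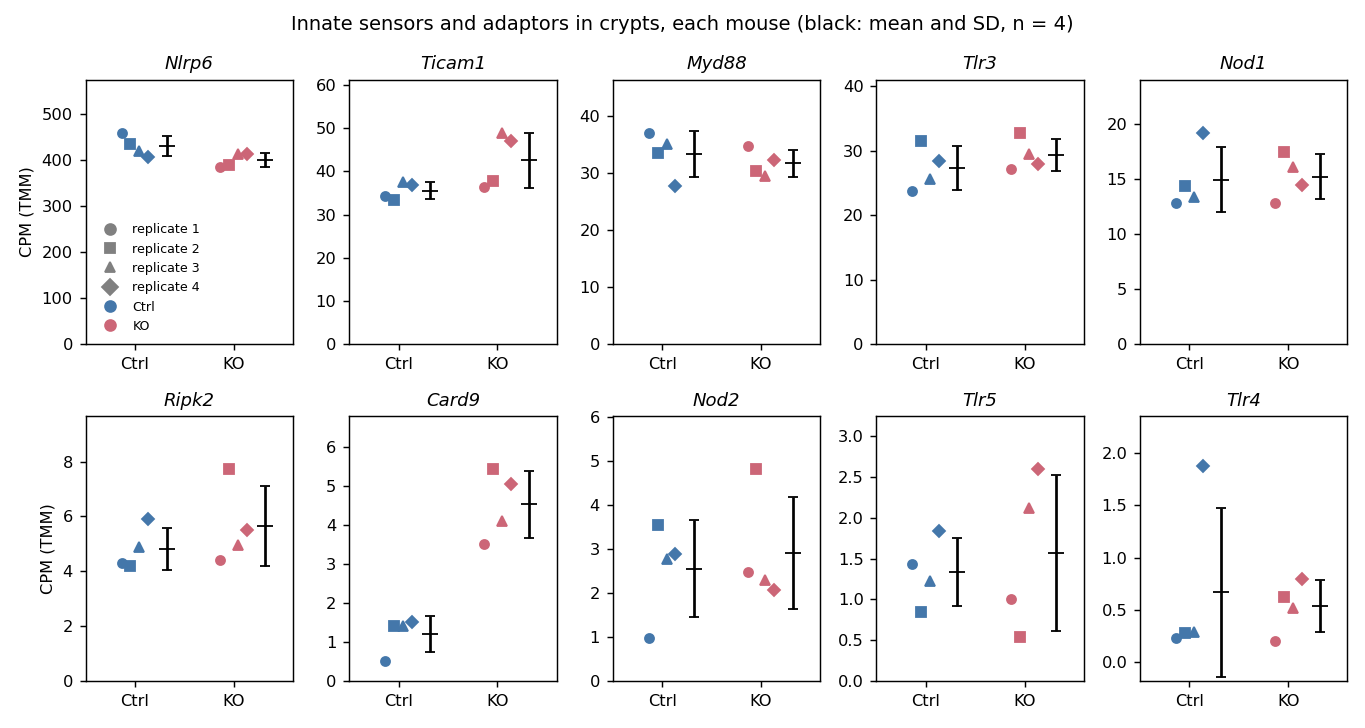
CPM of the 10 genes in each mouse, Ctrl in blue and KO in red, with a marker shape for each replicate number and the mean ± SD (n = 4) in black; each panel has its own linear axis. Card9 is the panel in which the genotypes do not overlap, at 0.508 to 1.504 CPM in Ctrl and 3.53 to 5.43 in KO. In Tlr4 the SD bar of Ctrl passes below 0 because Ctrl replicate 4 stands at 1.88 CPM and the rest under 0.30.

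Among the 10 genes, Card9 was the one whose 4 KO mice all lay above the 4 Ctrl mice, and no gene lay entirely below. Over all genes tested, 2.17% lay entirely above and 1.87% entirely below. Among them Card9 and Ticam1, 2 of 10, were on the near side of an unadjusted p of 0.05 in edgeR, both higher in KO, where 5.33% of all genes tested were higher and 3.05% lower. None of the 10 passed the adjusted threshold in edgeR. With DESeq2, 1 of 10 (Card9) passed the adjusted threshold, against 0.577% of all genes tested. Since the members were chosen with this comparison known, nothing is read from these counts. All 10 passed the filter on low counts. By the sign of the fit 7 were higher in KO and 3 lower. Their median log2 fold change was 0.15, beside a median of -0.02 over all genes tested.

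Ticam1 (ENSMUSG00000047123; chromosome 17, 56269319 to 56276786, minus strand) encodes TRIF, the adaptor of TLR3 and, with TICAM2, of TLR4. It stood at 34.3, 33.5, 37.6 and 36.8 CPM in Ctrl and at 36.4, 37.8, 48.9 and 46.9 CPM in KO. KO replicates 3 and 4 lay well above every Ctrl mouse and KO replicate 2 narrowly so, while KO replicate 1 lay within the Ctrl range. The log2 fold change was 0.26 (standard error 0.11), with KO higher in all 4 same-numbered pairs (1.06-fold to 1.302-fold).

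Myd88 (ENSMUSG00000032508; chromosome 9, 119335934 to 119341411, minus strand) encodes the adaptor of TLR4 and TLR5, but not of TLR3. It stood at 37.1, 33.4, 35.0 and 27.7 CPM in Ctrl and 34.8, 30.3, 29.4 and 32.2 CPM in KO. The KO mice all lay inside the Ctrl range, and the log2 fold change was -0.07 (standard error 0.11). Of the 2576 exon bases of Myd88, 290 (11.3%) are shared with Acaa1a on the opposite strand, a gene with 2672 to 6162 counts. The strand setting of the counting is not given in the sources used here, so reads from these shared bases cannot be told apart.

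Ripk2 (ENSMUSG00000041135; chromosome 4, 16122733 to 16163647, minus strand) encodes the kinase on which NOD1 and NOD2 signals converge. It had 4.30, 4.205, 4.88 and 5.89 CPM in Ctrl and 4.41, 7.72, 4.98 and 5.52 CPM in KO. KO replicate 2 stood alone above the Ctrl range, and the log2 fold change was 0.23 (standard error 0.21).

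Of the receptors of peptidoglycan fragments, Nod1 (ENSMUSG00000038058; chromosome 6, 54923949 to 54972612, minus strand) reads fragments with diaminopimelic acid. It stood at 12.9, 14.4, 13.4 and 19.3 CPM in Ctrl and at 12.8, 17.5, 16.1 and 14.5 CPM in KO, with a log2 fold change of 0.02 (standard error 0.16). The genotypes spanned nearly the same range, and the sign turned in fits without Ctrl replicate 1, Ctrl replicate 3, KO replicate 2 or KO replicate 3 (-0.049 at the lowest). Nod2 (ENSMUSG00000055994; chromosome 8, 88647315 to 88688474, plus strand) reads muramyl dipeptide and is known from Paneth cells and stem cells of the crypt. It had 0.970, 3.55, 2.78 and 2.88 CPM in Ctrl and 2.48, 4.81, 2.29 and 2.06 CPM in KO, with a log2 fold change of 0.19 (standard error 0.41). Ctrl replicate 1 was the lowest of all 8 mice and KO replicate 2 the highest, and the sign of the difference turned without either (-0.08 without Ctrl replicate 1, -0.16 without KO replicate 2). Ctrl replicate 1 was also the lowest mouse for Card9.

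Tlr3 (ENSMUSG00000031639; chromosome 8, 45395665 to 45411080, minus strand) encodes the endosomal receptor of double-stranded RNA and had the highest FPKM of the TLRs among the members. It stood at 23.7, 31.5, 25.6 and 28.3 CPM in Ctrl and at 27.1, 32.8, 29.5 and 28.0 CPM in KO. The ranges overlapped over most of their width, with a log2 fold change of 0.11 (standard error 0.11). An antisense gene, Gm45542, shares 381 exon bases with Tlr3 and had 0 counts in all mice.

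Tlr5 (ENSMUSG00000079164; chromosome 1, 182954788 to 182976044, plus strand), the receptor of flagellin, had 31, 18, 25 and 44 counts in Ctrl and 24, 14, 49 and 78 in KO. In CPM that is 1.43, 0.841, 1.22 and 1.84 against 1.01, 0.543, 2.12 and 2.59. KO replicates 1 and 2 were below their same-numbered controls and KO replicates 3 and 4 above, so the log2 fold change of 0.23 (standard error 0.47) averages mice that differ in sign, and it was -0.13 without KO replicate 4.

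Tlr4 (ENSMUSG00000039005; chromosome 4, 66827584 to 66930284, plus strand), the receptor of lipopolysaccharide, had the lowest FPKM of the members. It had 5, 6, 6 and 45 counts in Ctrl and 5, 16, 12 and 24 in KO, or 0.231, 0.280, 0.293 and 1.88 CPM against 0.210, 0.621, 0.519 and 0.798 CPM. A single mouse, Ctrl replicate 4, set the sign of its difference: the log2 fold change was -0.33 (standard error 0.71) with that mouse and 1.004 without it. With 5 or 6 counts in 4 of the 8 mice, Tlr4 was near the limit of what this depth can compare.

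Nlrp6 (ENSMUSG00000038745; chromosome 7, 140920902 to 140929192, plus strand) had 8572 to 12419 counts per mouse. It stood at 459, 434, 419 and 407 CPM in Ctrl and at 384, 388, 412 and 413 CPM in KO. KO replicates 1 and 2 lay below every Ctrl mouse and KO replicates 3 and 4 inside the Ctrl range. The means were 429.8 ± 22.5 CPM in Ctrl and 399 ± 15.4 CPM in KO (SD, n = 4 mice each). Their log2 difference in the fit was -0.11, with a standard error of 0.07 that was the smallest among the members.

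Per gene length, the 10 genes spanned a 751-fold range of mean FPKM. Their order from the top was Nlrp6, Ticam1, Myd88, Tlr3, Nod1, Ripk2, Card9, Nod2, Tlr5 and Tlr4. Nlrp6, at 83.9 FPKM in Ctrl and 78.4 in KO, exceeded 96.1% of the genes tested. The adaptors Ticam1 (11.8 and 14.2 FPKM) and Myd88 (12.8 and 12.3 FPKM) came next, above 74.3% and 73.6% of genes. Tlr3 was at 5.20 and 5.62 FPKM and Nod1 at 2.93 and 2.99 FPKM. The surface receptors Tlr5 (0.276 and 0.326 FPKM) and Tlr4 (0.120 and 0.0964 FPKM) closed the order, above 9.58% and 2.01% of genes.

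Neighbours in this order were compared within mice on log2(FPKM + 0.1) over 9 pairs. The test was a two-sided exact sign-flip permutation test (n = 8 mice, smallest possible p 0.0078). The order, and with it the pairs and the upper gene of each, came from the FPKM of the same 8 mice. The flips also treat the mice as independent, although same-numbered mice were correlated. The p-values therefore describe the gaps in these mice and are no separate test of the order. In 5 of the 9 pairs the adjusted p of the exact permutation test was 0.0141, with the upper gene higher in 8 of 8 mice. They were Nlrp6 above Ticam1 (6.26-fold), Myd88 above Tlr3 (2.30-fold), Tlr3 above Nod1 (1.81-fold), Nod1 above Ripk2 (1.58-fold) and Tlr5 above Tlr4 (1.96-fold). Ticam1 and Myd88 did not differ beyond the spread between mice (adjusted p = 0.711, exact permutation test, Ticam1 higher in 4 of 8). Nor did Ripk2 and Card9 (adjusted p = 0.0603), Card9 and Nod2 (0.0586) or Nod2 and Tlr5 (0.0791) by the same exact test. The test pools the genotypes, so for the pairs with Card9 the spread between mice includes the difference of Card9 between genotypes. In Ctrl every mouse had Ripk2 (1.48 to 2.07 FPKM) above Card9 (0.218 to 0.650 FPKM), and in KO every mouse had Card9 (1.54 to 2.36 FPKM) above Nod2 (0.410 to 0.958 FPKM). By mean FPKM Card9 held place 7 in both genotypes, between Ripk2 and Nod2, but its level moved. Its mean was 0.523 FPKM in Ctrl, beside Nod2 at 0.504, and 1.97 FPKM in KO, beside Ripk2 at 2.00. Ticam1 and Myd88 exchanged places 2 and 3, with Myd88 higher in Ctrl and Ticam1 higher in KO.

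**Figure D2:**
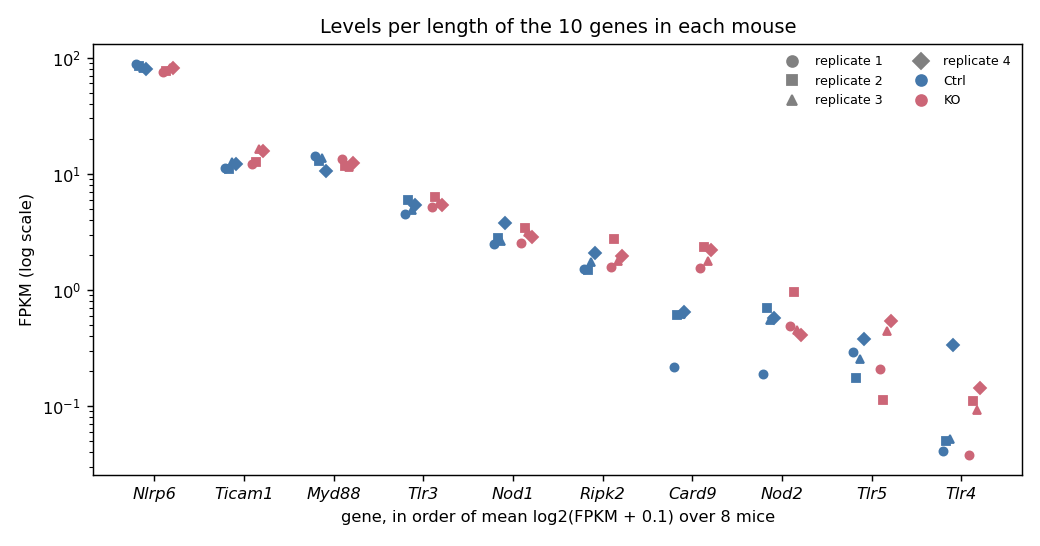
FPKM of the 10 genes in each of the 8 mice on a log axis, genes in the order of their mean level, Ctrl in blue and KO in red, a marker shape for each replicate number. Nlrp6 stands apart at 75.6 to 89.0 FPKM, and Card9 moves from the level of Nod2 in Ctrl to that of Ripk2 in KO.

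Because Card9 shares its locus, its neighbours were compared as well. The antisense gene Gm13562 overlaps Card9 by 8274 bases, of which 87 are exonic in both (3.79% of the exon bases of Card9). It had 45, 15, 8 and 13 counts in Ctrl and 26, 18, 8 and 34 in KO (log2 fold change -0.17, standard error 0.56), so the mouse highest for Gm13562, Ctrl replicate 1, was the lowest for Card9. Dnlz, which starts 66 bases away, was at 31.8 CPM in Ctrl and 34.1 CPM in KO (log2 fold change 0.10, standard error 0.10, adjusted p = 0.820 in edgeR). Gpsm1 (0.28), Snapc4 (-0.22), Entr1 (0.07) and Pmpca (0.01) had an unadjusted p above 0.05 too. Qsox2, 114651 bases away, was lower in all 4 KO mice than in any Ctrl mouse (log2 fold change -0.27, unadjusted p = 0.00698, adjusted p = 0.518 in edgeR).

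Other cell types contribute RNA to a crypt fraction, and their markers were measured beside Card9. Markers of macrophages and dendritic cells, in which Card9 is well known, summed to 25.0 to 38.0 CPM in Ctrl and 30.9 to 39.0 CPM in KO. Of the 14 genes of that list 9 were tested, 5 higher and 4 lower by the sign of the fit, and 0 had an unadjusted p under 0.05. Markers of T cells and intraepithelial lymphocytes summed to 18.0 to 61.1 CPM in Ctrl and 35.7 to 134 CPM in KO, and of the 11 tested 11 were higher by the sign of the fit, 7 of them with an unadjusted p under 0.05 in edgeR (called in what follows). Ileum markers, led by Fabp6, summed to 82.6 to 415 CPM in Ctrl and 439 to 921 CPM in KO without overlap, with 6 of 6 higher by sign and 5 of them called. Stem cell markers, led by Olfm4, summed to 5479 to 6062 CPM in Ctrl and 4143 to 5072 CPM in KO, with 8 of 8 lower by sign and 5 of them called. Epithelial markers also did not overlap (9240 to 9935 CPM in Ctrl, 10601 to 12478 CPM in KO, 8 of 8 higher by sign and 4 of them called), so 3 of the 17 marker lists examined separated the genotypes as Card9 did. The epithelial genes called were Vil1, Krt8, Krt19 and Krt20, whereas Cldn7 (log2 fold change 0.19), Epcam (0.07), Krt18 (0.04) and Cdh1 (0.002) were not. Enterocyte markers, led by Anpep, overlapped at 1604 to 4471 CPM in Ctrl and 2726 to 10786 CPM in KO, with 10 of 10 higher by sign and 3 of them called. Paneth cell markers, led by Lyz1, overlapped at 15767 to 52125 CPM in Ctrl and 8081 to 26764 CPM in KO, with 10 of 10 lower by sign and 0 called. The part of the cells behind any of the 17 marker lists, macrophages and dendritic cells included, in the difference of Card9 was not tested.

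**Figure D3:**
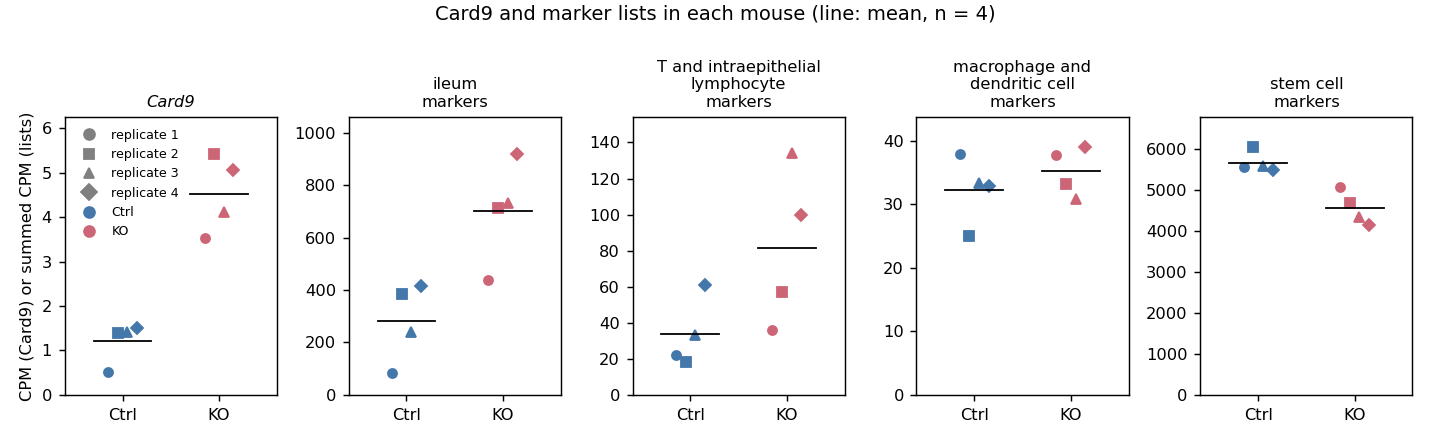
CPM of Card9 and summed CPM of 4 marker lists in each mouse, Ctrl in blue and KO in red, marker shapes for replicate numbers and a line at the mean of 4 mice. The genotypes do not overlap for Card9, the ileum list or the stem cell list, and they overlap for the lymphocyte list (18.0 to 61.1 against 35.7 to 134 CPM) and the macrophage and dendritic cell list (25.0 to 38.0 against 30.9 to 39.0 CPM).

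The members work within larger pathways, and 147 other genes of innate sensing were listed in 11 groups, of which 119 were tested. At an unadjusted p under 0.05 in edgeR, 14 were higher in KO and 0 lower, or 11.8% higher beside 5.33% of all genes. In edgeR 0 of the 119 passed the adjusted threshold, and in DESeq2 1 did (Nlrp9b), beside 0.577% of all genes. With the replicate number as a block 24 were higher and 0 lower, beside 7.14% higher and 4.13% lower of all genes in that fit. The block raised the number from 3 to 5 among the other NOD-like receptors and inflammasome genes, from 2 to 5 among inhibitors, from 3 to 5 among target genes, from 2 to 3 in muropeptide handling and from 0 to 1 among TLR co-receptors and trafficking genes. The count depended on single mice: it was 9 without Ctrl replicate 1, 9 without Ctrl replicate 2, 8 when KO replicate 3 was dropped and 26 when KO replicate 1 was. Over all genes tested the number called higher moved too, from 491 to 1305 when 1 mouse was left out. By the sign of the fit 82 of 119 were higher (68.9%, beside 46.1% of all genes tested), with a median log2 fold change of 0.11.

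For the direct partners of CARD9, the log2 fold change was 0.09 for Bcl10 (standard error 0.07), -0.03 for Malt1 (0.11) and -0.04 for Card10 (0.06), a relative of Card9 used outside the blood lineages. None of the 3 had an unadjusted p under 0.05. Prkcd, the kinase that activates CARD9 below C-type lectin receptors, was called higher (log2 fold change 0.28, unadjusted p = 0.0409, adjusted p = 0.578 in edgeR). Its p was 0.0572 in edgeR with the replicate block. For the TLRs, the bridging adaptor Tirap had a log2 fold change of -0.09, the TLR4 co-receptors Ly96 and Cd14 of -0.02 and -0.11, and the receptors Tlr1 and Tlr2 of 0.22 and 0.11, all with an unadjusted p above 0.05. Tlr9 had 3 to 11 counts per mouse and Ticam2 3 to 6, too few to be tested.

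Downstream of the members, 0 of 26 kinases and ubiquitin ligases were called, beside 5.33% higher and 3.05% lower of all genes tested. With the replicate block 2 of the 26 were, Chuk and Birc3 (both higher, and named after their values were seen). In that fit 7.14% of all genes were higher and 4.13% lower. Irak1 (-0.08), Irak4 (0.06), Traf6 (-0.08), Traf3 (-0.12), Map3k7 (0.09), Xiap (0.00) and Tbk1 (0.10) all had log2 fold changes close to 0. The same was true of the transcription factors Nfkb1 (-0.08), Rela (-0.03) and Irf3 (-0.06). Irf7, an interferon-inducible factor that acts below MYD88 and TRIF, was at 21.2 ± 10.97 CPM in Ctrl and 42.4 ± 15.4 CPM in KO (SD, n = 4 mice each; log2 fold change 0.996, unadjusted p = 0.0232, adjusted p = 0.545 in edgeR). Among the inhibitors Tnfaip3 (0.41) and Nfkbib (0.27), which restrain NF-kB, were called higher.

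Among the other NOD-like receptors and inflammasome genes, 3 of 16 tested were called higher at an unadjusted p under 0.05 in edgeR, beside 5.33% of all genes, and 14 of 16 were higher by the sign of the fit. Nlrp9b, an intestinal sensor of viral double-stranded RNA, stood at 2.495, 4.44, 1.90 and 5.85 CPM in Ctrl and at 6.51, 20.3, 13.3 and 11.4 CPM in KO, with every KO mouse above every Ctrl mouse. Its log2 fold change was 1.80 (standard error 0.42, unadjusted p = 0.0018, adjusted p = 0.502 in edgeR). The adjusted p was 0.00195 in DESeq2 and ran from there to 0.952 over the settings tried, the highest being without KO replicate 3. Naip5, which binds flagellin for the NLRC4 inflammasome, was 0.54 higher on the log2 scale, with the caution that its paralogs Naip1, Naip2 and Naip6 are close copies and reads may be split between them. Il1b, the cytokine that inflammasomes process, was 1.18 higher from 0.615 ± 0.190 CPM in Ctrl (SD, n = 4). The inflammasome adaptor Pycard (0.02), Casp1 (0.14) and Il18 (0.15), which act below NLRP6, were not called.

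RNA and nucleic acid sensors gave 2 of 7 called, Ddx58 (RIG-I; 0.50) and Zbp1 (0.98). In muropeptide handling 2 of 8 were called, the amidase Pglyrp2 (1.17) and the lysosomal transporter Slc46a3 (1.13). Of the 17 target genes tested, Cxcl10 (1.44), Ccl5 (1.59) and Reg3b (1.08) were called higher, the first 2 being chemokines and the last an antimicrobial lectin. Beside each of these groups, 5.33% of all genes tested were called higher and 3.05% lower. Cxcl10 rested on 2 to 37 counts per mouse and Pglyrp2 on 3 to 35. Ccl5 is also known from lymphocytes, whose markers are given above. Nlrp9b, Il1b and Cxcl10 were the 3 of 119 pathway genes with every KO mouse above every Ctrl mouse, beside 2.17% of all genes tested. Of the 14 genes called, 4 (Nlrp9b, Naip5, Il1b and Cxcl10) kept an unadjusted p under 0.05 in all 8 fits that left out 1 mouse, and 10 lost it in at least 1 (8 lost it without Ctrl replicate 1, 8 without Ctrl replicate 2, 7 when Ctrl replicate 3 was dropped, 7 for KO replicate 3 and 7 for KO replicate 4).

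**Figure D4:**
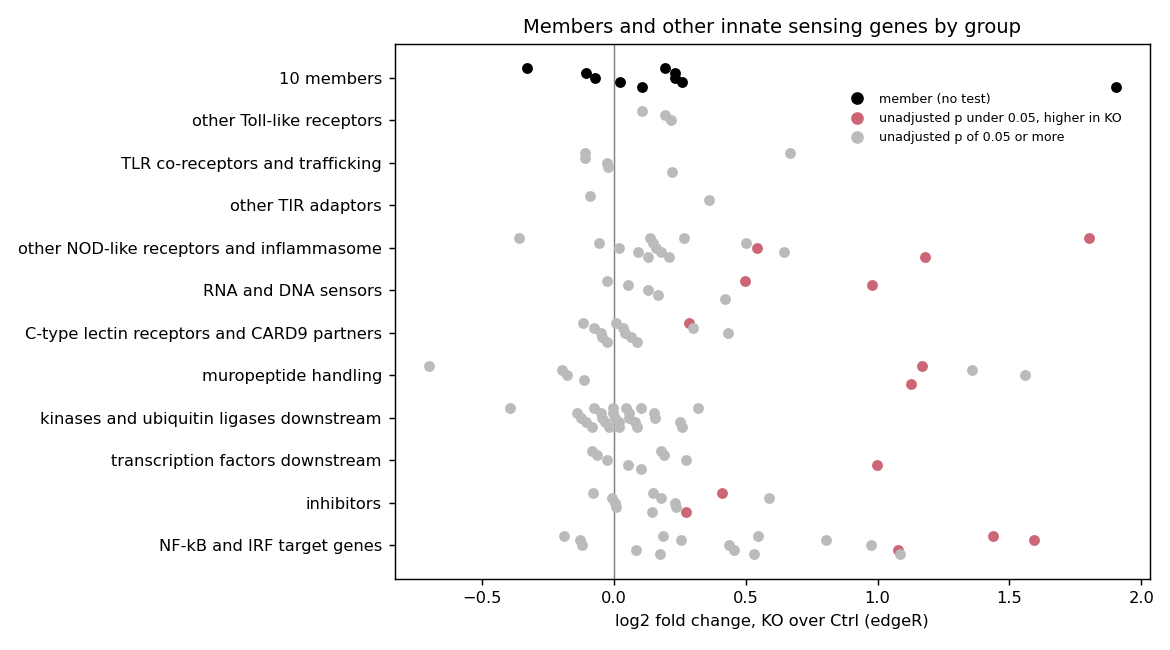
Log2 fold change of KO over Ctrl from edgeR for the 10 members (black, no test) and the 119 other innate sensing genes tested, by group; red marks an unadjusted p under 0.05 and grey the rest. Card9 lies at 1.90 while the 9 other members lie between -0.33 and 0.26, and the red points all lie to the right of 0, up to 1.80 for Nlrp9b.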

How the data were processed

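For 8 crypt RNA libraries (4 Ctrl, 4 KO) the authors deposited a table of unnormalized counts of reads on each gene. They also deposited FPKM values of the same genes. CASAVA, HISAT2 2.0.5 and featureCounts 1.5.0-p3 are named in the submitters' processing notes. The genome build and the strand setting are not given in the sources used here, and the coordinates in the table are those of GRCm38. The DESeq2 fold changes and p-values in the authors' table, and their list of differential genes, were not used.

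Counts were analysed with edgeR 4.0.16 in R 4.3.3: filterByExpr (minimum count 10), TMM, and the quasi-likelihood test over all 8 mice with genotype as the only term (3.34 prior and 6 residual degrees of freedom). Adjustment was that of Benjamini and Hochberg, over the 16109 genes tested, with a threshold of 0.05, and called means an unadjusted p under 0.05. On simulated counts the share of false calls among adjusted calls was above the threshold for each test, and highest for DESeq2. The members and all lists were chosen with earlier results of these data known. Named were Mex3a, the members, a set of their partners, the other pathway genes with an unadjusted p under 0.05 (at most 20), and for marker lists the leading gene and those at 0. The neighbours of Card9, Gm45542 and Acaa1a were named for their position, and Nlrp1b and Naip6 after their values were seen. Clec6a was the pathway gene not found in the table. Levels were compared on log2(FPKM + 0.1). Alternatives were DESeq2 1.42.0, other size factors, other filters, limma 3.58.1 on FPKM, other pseudocounts, a replicate block and leaving out each mouse.

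Where 2 mice shared a number, their departures from the genotype means were correlated (r = 0.135 to 0.580 over genes in the 4 pairs), which met the limit of 0.1 set for calling the numbers a pairing. The reported fit nevertheless has no block, as it was laid down, and the blocked fit is given where a gene named by the rule above loses its call or a count moves by 1.5 times or more. Mex3a lost its adjusted call in the blocked fit. The controls were littermates, though no label ties a number to a litter. Libraries of a genotype always differed by more than sampling noise (chi-square over its degrees of freedom, 23.8 to 88.6).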

Additional observations from a re-analysis of the deposited data

Results flagged for a closer look

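Within each genotype, the highest or lowest of 4 mice was compared with the others by Dixon's ratio at its 95% critical value. Of 124 groups of 4 mice examined 13 passed, where chance gives about 6.2 (1 in 20). No explanation was tested for any of them.

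Such a mouse was seen for 3 of the members. Card9 was at 0.508 CPM in Ctrl replicate 1, below the 1.40 to 1.504 CPM of the other Ctrl mice, so that mouse lowered the Ctrl mean, and without it the log2 fold change of Card9 was 1.65. Nod2 was at 4.81 CPM in KO replicate 2, above 2.06 to 2.48 CPM in the other KO mice. Tlr4 was at 1.88 CPM in Ctrl replicate 4, above 0.231 to 0.293 CPM.

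KO replicate 2, the high mouse for Nod2, was also high for the lipopolysaccharide co-receptor Cd14 (19.6 CPM, others 7.58 to 9.09) and for Tlr2 (11.8 CPM, others 3.46 to 4.76). Ctrl replicate 4, the high mouse for Tlr4, was also the high Ctrl mouse for Naip5 (93.6 CPM, others 74.9 to 76.7), Zbp1 (13.2 CPM, others 4.39 to 5.62) and Slc46a3 (9.48 CPM, others 2.71 to 3.37). Malt1, the partner of CARD9, was low in KO replicate 1 (25.7 CPM, others 31.9 to 32.6).

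Among summed markers, Ctrl replicate 1 was low for the epithelial list (9240 CPM, others 9839 to 9935), and Ctrl replicate 2 was high for the stem cell list (6062 CPM, others 5479 to 5577) and low for the colon list (128.9 CPM, others 194.6 to 200.2). KO replicate 3 was high for the enteroendocrine list (352 CPM, others 324 to 327).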

How the results depend on the processing

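Card9 kept a positive log2 fold change in every setting tried, 1.65 to 2.03 when 1 mouse was left out and 0.97 with limma on log2(FPKM + 1), a scale that shrinks differences of low genes. Nod1 (-0.049 to 0.17), Nod2 (-0.16 to 0.39), Tlr4 (-0.61 to 1.004) and Tlr5 (-0.13 to 0.52) changed sign when single mice were left out, and 72 of 80 such member values kept theirs. Members with an unadjusted p under 0.05 numbered 1 to 2 when 1 mouse was left out, beside the counts of all genes given below, with Ticam1 no longer among them without Ctrl replicate 1, 2 or 4 or KO replicate 3 or 4. With the replicate block, which pairs the mice by number, 0 genes passed the adjusted threshold and 24 pathway genes were higher; of the pathway genes named, Prkcd lost its call and no other did. Genes past the adjusted threshold numbered 93 with DESeq2, 2 without the filter, 0 with at least 10 counts required in every mouse and 0 to 4 when 1 mouse was left out. At the unadjusted threshold 1312 genes were higher without the filter, and leaving out 1 mouse gave 491 to 1305 higher and 355 to 828 lower. Pathway genes numbered 8 to 26 higher and 0 to 1 lower when 1 mouse was left out, and 1 was lower without the filter. The neighbouring pairs of levels with an adjusted p under 0.05 in the exact permutation test numbered 5 to 6 when 1 mouse was left out. The marker lists without overlap numbered 3 to 5 in the same fits. The cause of these changes was not tested. Depth limits Tlr4, Tlr5, Nod2 and Card9 most, where a mouse contributed as few as 5, 14, 21 and 11 counts.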

Other observations

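Nlrp1b, an inflammasome sensor outside the 10 members, was counted 41, 34, 25 and 23 times in the Ctrl mice and 0, 30, 40 and 75 times in the KO mice, in replicate order. Naip6 had 2708 to 4013 counts in the Ctrl mice and 1788, 5653, 4722 and 5800 in the KO mice. KO replicate 1 was therefore the lowest of all 8 mice for both genes. Both were among the pathway genes tested, and neither had an unadjusted p under 0.05 in edgeR (log2 fold change -0.06 for Nlrp1b and 0.18 for Naip6). Both were picked after their values were seen.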
